A study of Mus musculus with 7 samples.

Results

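The nuclear lamina genes examined here are 8 of the 28786 genes in the deposited count table. They are the lamin genes Lmna, Lmnb1 and Lmnb2, the inner nuclear membrane genes Lbr, Emd and Tmpo, and Sun1 and Sun2, whose products span that membrane and reach towards the cytoskeleton. They were listed by function, except that Lmna was chosen by its measured levels in MC38 against control libraries. Those values of Lmna are therefore given as a description, with no test, and the other 7 genes were tested.

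RNA was sequenced from haematopoietic stem cells (HSCs) sorted from the bone marrow of normal mice and of C57BL/6J mice with MC38 colon cancer, all aged 6 to 8 weeks. MC38 is a mouse colon carcinoma line, and the comparison addresses the myeloid bias that tumours induce in HSCs. The labels give 3 control and 4 MC38 libraries, each from 1500 cells. They do not state the sort gates, the way the tumour was given, its duration, or whether each library is a separate animal. The p-values therefore weigh differences only against library-to-library spread, which may be technical. Control column 3 is not an independent library: its values were a median of 0.353 of the sum of the other control columns over 9652 genes, with 95% of genes between 0.341 and 0.371. The values below therefore compare 2 control with 4 MC38 libraries.

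The lamina is a meshwork of lamin filaments under the inner nuclear membrane that supports the nucleus and anchors silent chromatin. Lmna encodes lamins A and C by alternative splicing, and these A-type lamins are known to increase with tissue stiffness and to be low in soft tissues such as marrow. Lmnb1 and Lmnb2 encode the B-type lamins, which stay farnesylated and membrane-bound. LBR, the lamin B receptor, tethers heterochromatin and has a sterol reductase domain, and its loss alters the lobed nuclei of neutrophils. Emerin (Emd) and LAP2 (Tmpo) carry the LEM domain, which binds the chromatin protein BAF. SUN1 and SUN2 pair with nesprins to form the LINC complex, which couples the nucleus to the cytoskeleton.

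The sequences before start sites of Lmna, Lmnb2 and Lbr are shown because these were the members with the largest fold changes. They are the 250 bases before each RefSeq start site (GRCm38.p6, all on the minus strand), written 5′ to 3′ towards the gene. Capitals mark every match, on either strand, to any of the GC box GGGCGG, the CCAAT box CCAAT, the AP-1 site TGANTCA, the CHR element TTTGAA, the nuclear receptor half-site AGGTCA and the E2F site TTTCCCGC.
Lmna, upstream start, chr3:88503353-88503602: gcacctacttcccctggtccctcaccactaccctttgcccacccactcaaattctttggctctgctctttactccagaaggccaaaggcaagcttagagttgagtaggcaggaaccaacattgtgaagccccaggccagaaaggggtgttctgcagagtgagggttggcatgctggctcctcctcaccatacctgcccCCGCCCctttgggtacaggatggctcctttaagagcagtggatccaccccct
Lmna, downstream start, chr3:88493313-88493562: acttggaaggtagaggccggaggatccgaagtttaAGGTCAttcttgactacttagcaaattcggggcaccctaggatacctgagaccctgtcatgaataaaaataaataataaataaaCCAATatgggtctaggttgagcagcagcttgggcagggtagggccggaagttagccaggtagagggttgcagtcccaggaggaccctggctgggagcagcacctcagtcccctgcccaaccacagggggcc
Lmnb2, upstream start, chr10:80918246-80918495: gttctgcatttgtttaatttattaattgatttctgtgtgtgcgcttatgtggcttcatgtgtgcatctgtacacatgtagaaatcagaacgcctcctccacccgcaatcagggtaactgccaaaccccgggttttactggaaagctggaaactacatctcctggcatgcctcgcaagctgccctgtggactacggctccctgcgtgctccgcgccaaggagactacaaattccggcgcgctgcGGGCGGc
Lbr, chr1:181842402-181842651: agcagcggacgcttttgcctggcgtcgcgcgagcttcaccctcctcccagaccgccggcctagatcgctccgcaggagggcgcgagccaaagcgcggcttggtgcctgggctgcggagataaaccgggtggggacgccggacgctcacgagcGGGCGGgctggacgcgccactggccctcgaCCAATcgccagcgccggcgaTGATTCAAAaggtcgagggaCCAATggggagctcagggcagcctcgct

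The upstream Lmna window held 1 GC box, 52 bases before the start, and the downstream window held a CCAAT box and a half-site. The Lbr window held 1 GC box, 2 CCAAT boxes, and an AP-1 match that overlapped a CHR match. The upstream Lmnb2 window held 1 GC box, and the window of a downstream Lmnb2 start (chromosome 10, 80906412), not printed, held a half-site and no GC box. Over all 32851 RefSeq windows of this length, 32.7% held a GC box, 33.8% a CCAAT box, 14.0% a half-site, 6.75% an AP-1 match and 16.0% a CHR match. Gene counts do not show which start site was used, and a match describes letters only.

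The gene Lmna (ENSMUSG00000028063, chromosome 3: 88480147 to 88509956, mm10) was lower in MC38. Its level was 85.1 and 92.6 CPM (read counts scaled to library size with TMM factors) in control 1 and 2, and 53.6, 42.7, 30.1 and 32.8 CPM in MC38 1 to 4. All 4 MC38 libraries lay below both controls, and MC38 3 and 4 lay lowest. The group means were 88.9 ± 5.31 and 39.8 ± 10.7 CPM (SD, n = 2 and 4), a fitted log2 difference of -1.16 (SE 0.23), or 0.448 of the control level. Reads of lamin A and lamin C are not separated in a gene count. In bulk libraries, fewer cells that express a gene and less RNA per cell cannot be told apart.

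The B-type lamin genes were also lower in every MC38 library, by less, and neither passed the test. Lmnb2 (chromosome 10: 80901203 to 80918245) was at 39.1 and 42.6 CPM in the controls and at 29.7, 34.1, 19.2 and 24.3 CPM in MC38 1 to 4. The groups did not overlap, but the gap from control 1 to MC38 2 was smaller than the spread within MC38. The log2 fold change was -0.61 (SE 0.24; adjusted p = 0.243 in edgeR), and it was -0.34 without MC38 3 and 4 (adjusted p = 0.504 in edgeR). Lmnb1 (chromosome 18: 56707813 to 56753424) was at 89.6 and 89.4 CPM in the controls and at 84.4, 70.1, 61.2 and 79.2 CPM in MC38 1 to 4. Its log2 fold change was -0.28 (SE 0.16; adjusted p = 0.408 in edgeR). The controls were nearly equal, and MC38 3 was again the lowest library.

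Lbr (chromosome 1: 181815335 to 181843046) was higher in every MC38 library and did not pass the test. It was at 155.6 and 184.6 CPM in the controls and at 194.6, 232.9, 367.5 and 269.3 CPM in MC38 1 to 4. MC38 1 was only just above control 2, and MC38 3 stood highest. The log2 fold change was 0.65 (SE 0.23; adjusted p = 0.189 in edgeR), and it was 0.45 without MC38 3 and 0.34 without MC38 3 and 4 (edgeR adjusted p = 0.173 and 0.27). Neutrophil marker transcripts were higher in MC38 too. The 11 markers summed to 28044 and 28340 CPM at the lowest and highest in control and to between 53991 and 61577 CPM in MC38. All 11 were tested, with 8 called higher and 0 lower in edgeR, against 1.04% and 0.569% of all tested genes. Cxcr2 overlapped between the groups (173.6 and 208.4 CPM in control and MC38). Within MC38, the marker sum was highest in MC38 1, where Lbr was lowest, and lowest in MC38 3, where Lbr was highest. The part of neutrophil transcripts in the Lbr values was not tested.

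The LEM domain genes overlapped between the groups. Emd (chromosome X: 74254687 to 74261548) was at 84.7 and 85.2 CPM in the controls and at 95.6, 76.7, 61.4 and 65.3 CPM in MC38 1 to 4. MC38 1 was above the controls and the other MC38 libraries were below them. The log2 fold change was -0.18 (SE 0.19; adjusted p = 0.672 in edgeR). Tmpo (chromosome 10: 91147571 to 91181315) was at 143.9 and 179.4 CPM in the controls and at 159.3, 139.0, 168.3 and 194.9 CPM in MC38 1 to 4. Its log2 fold change was 0.03 (SE 0.16; adjusted p = 0.942 in edgeR), and its splice forms are not separated in the count.

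The SUN domain genes were slightly higher in MC38, and neither passed the test. Sun2 (chromosome 15: 79724070 to 79742536) was at 99.6 and 111.7 CPM in the controls and at 157.7, 129.1, 112.5 and 127.4 CPM in MC38 1 to 4. MC38 1 was highest, and MC38 3 lay within 1 CPM of control 2. The log2 fold change was 0.32 (SE 0.16; adjusted p = 0.331 in edgeR). Sun1 (chromosome 5: 139200637 to 139249840) was at 30.7 and 33.9 CPM in the controls and between 34.3 and 38.6 CPM in MC38, with a log2 fold change of 0.15 (SE 0.18; adjusted p = 0.725 in edgeR). Both SUN genes were thus above the controls in every MC38 library, by little in MC38 3.

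**Figure D1:**
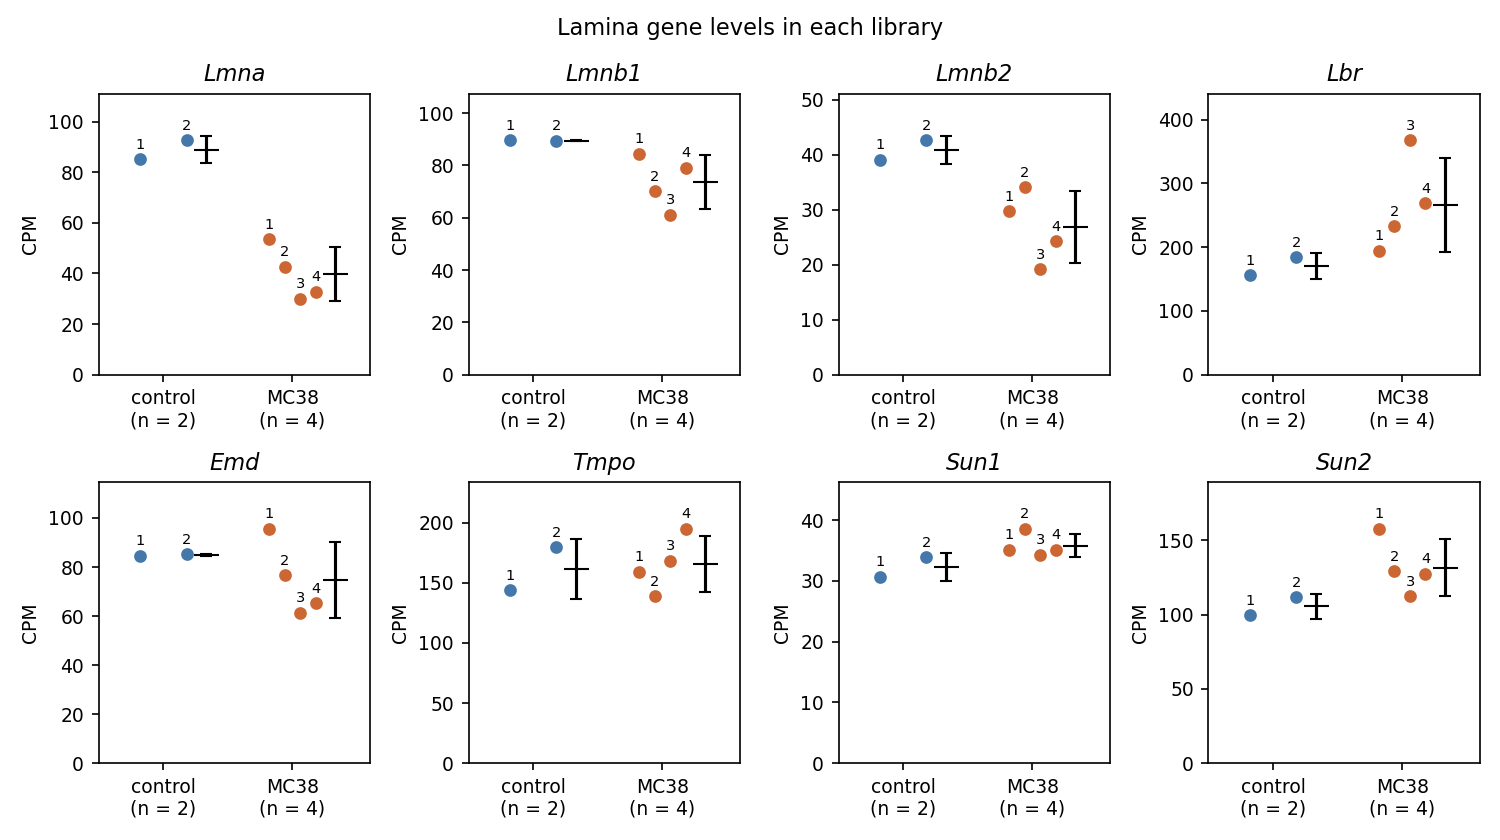
Level of each lamina gene in CPM (y axis, from 0) in control and MC38 libraries; points are libraries labelled with their replicate number, and bars show the mean ± SD. The 4 MC38 libraries lie below both controls for Lmna, Lmnb1 and Lmnb2 and above them for Lbr, Sun1 and Sun2, while Emd and Tmpo overlap.

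Of the 7 members tested, 0 passed in edgeR at an adjusted p under 0.05, and 2 (Lbr and Lmnb2) had an unadjusted p under 0.05. DESeq2 and limma-voom called 0 of them as well. Over all 14226 genes tested, 1.61% were called in either direction (1.04% higher and 0.569% lower), and 17.5% had an unadjusted p under 0.05. DESeq2 called 7.18% and limma-voom 1.13%. Of the 7, 3 were above and 2 below both controls in every MC38 library, while 14.0% and 15.0% of all tested genes were. The median log2 fold change of the 7 was 0.03, and that of all tested genes was 0.01. The counts over all genes moved with single libraries: the 148 higher and 81 lower became 44 and 16 without control 1, 58 and 25 without control 2, 259 and 183 without MC38 1, 69 and 28 without MC38 2, and 77 and 31 without MC38 4.

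Per kilobase of annotated exon, Lbr had the highest level in both groups, at 35.7 ± 4.31 CPM per kb in control and 55.9 ± 15.6 in MC38 (SD, n = 2 and 4). Emd followed at 33.7 ± 0.14 and 29.7 ± 6.10 CPM per kb, Lmnb1 at 30.2 ± 0.04 and 24.9 ± 3.45, and Sun2 at 19.5 ± 1.57 and 24.3 ± 3.49. In control, Lmna (15.2 ± 0.91 CPM per kb) and Tmpo (14.7 ± 2.28) came next and did not differ beyond their spread. In MC38, Tmpo (15.0 ± 2.11 CPM per kb) stood above Lmna (6.82 ± 1.83), which lay close to Lmnb2 (6.26 ± 1.51). Lmnb2 was at 9.53 ± 0.58 CPM per kb in control, and Sun1 had the lowest level, 4.25 ± 0.30 and 4.71 ± 0.25. Lbr and Emd in control did not differ beyond their spread, and in MC38 neither did Emd and Lmnb1, Lmnb1 and Sun2, or Lmna and Lmnb2. The order depends on the length used: with the longest transcript in place of all exons, Tmpo took place 3 in both groups and Emd stood above Lbr in control.

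The ratio of Lmna to the sum of Lmnb1 and Lmnb2, each per kb, describes the balance of A-type to B-type lamin transcripts. It was 0.371 and 0.395 in the controls and 0.259, 0.231, 0.205 and 0.174 in MC38 1 to 4. The highest MC38 library was below the lower control, and the geometric means differed 0.562-fold. Since Lmna was picked for its difference, this ratio is a description. The ratio of Lbr to Lmna, chosen after the values were seen, was 2.24 and 2.44 in the controls and 4.45, 6.69, 15.0 and 10.1 in MC38 1 to 4. It was highest in MC38 3, where Lbr was highest and Lmna lowest.

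**Figure D2:**
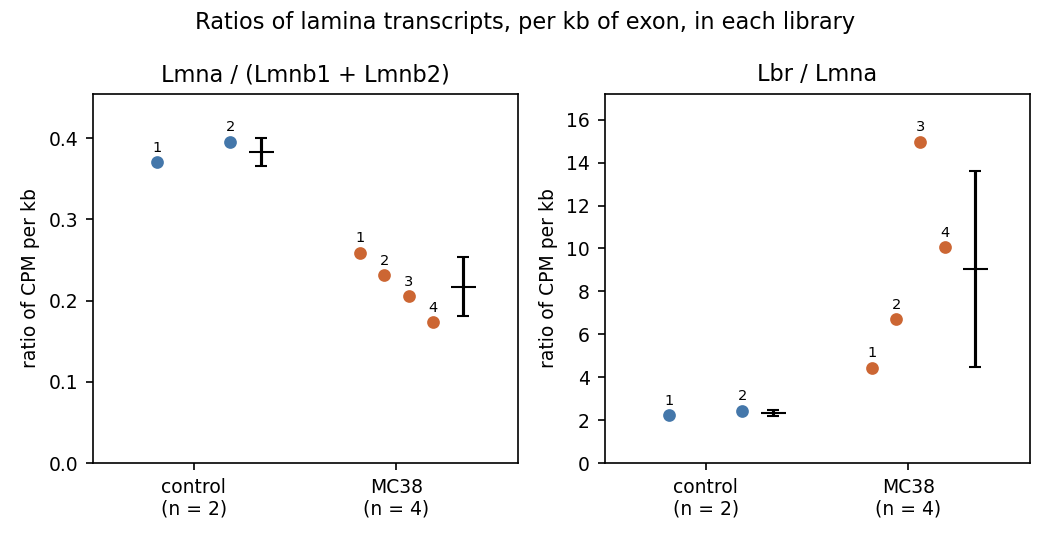
Ratio of Lmna to Lmnb1 plus Lmnb2 (left) and of Lbr to Lmna (right), both in CPM per kb of exon on axes from 0; points are libraries labelled with their replicate number, and bars show the mean ± SD. The left ratio is 0.371 and 0.395 in control and at most 0.259 in MC38, and the right one is at most 2.44 in control and at least 4.45 in MC38.

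Within the MC38 group, MC38 3 and MC38 1 held most of the extreme levels. MC38 3 had the lowest level of 6 of the 8 members (Lmna, Lmnb1, Lmnb2, Emd, Sun1 and Sun2) and the highest of Lbr. MC38 1 had the highest level of 4 members (Lmna, Lmnb1, Emd and Sun2) and the lowest of Lbr. The highest MC38 library exceeded the lowest 1.89-fold for Lbr, 1.78-fold for Lmna and Lmnb2, and 1.13-fold for Sun1.

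These libraries also differed in base composition. With genes split into 4 equal classes of GC content, the median log2 deviation of the GC-richest class minus that of the GC-poorest class was 0.29 in MC38 1, 0.11 in MC38 2, -0.37 in MC38 3 and -0.24 in MC38 4, against 0.15 and 0.05 in the controls. Mitochondrial transcripts took 3.14% and 2.88% of counts in MC38 3 and 4, and between 1.71% and 2.31% in the other libraries. Lbr and Tmpo have GC-poor transcripts (44.2% and 45.2% GC, against a median of 49.7% over tested genes), while the other 6 members lie between 51.4% and 57.6%. When each library's GC trend was taken off in the fit, an alternative chosen after the values were seen, the ratio of highest to lowest MC38 library became 1.59 for Lbr, 1.58 for Lmna, 1.48 for Lmnb2 and 1.16 for Sun2 (1.40 before). The log2 difference of Lmna between the groups was then -1.13, and the same 6 members had groups that did not overlap. Lbr then had a log2 fold change of 0.58 and Lmnb2 one of -0.56 (edgeR adjusted p = 0.095 and 0.159).

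**Figure D3:**
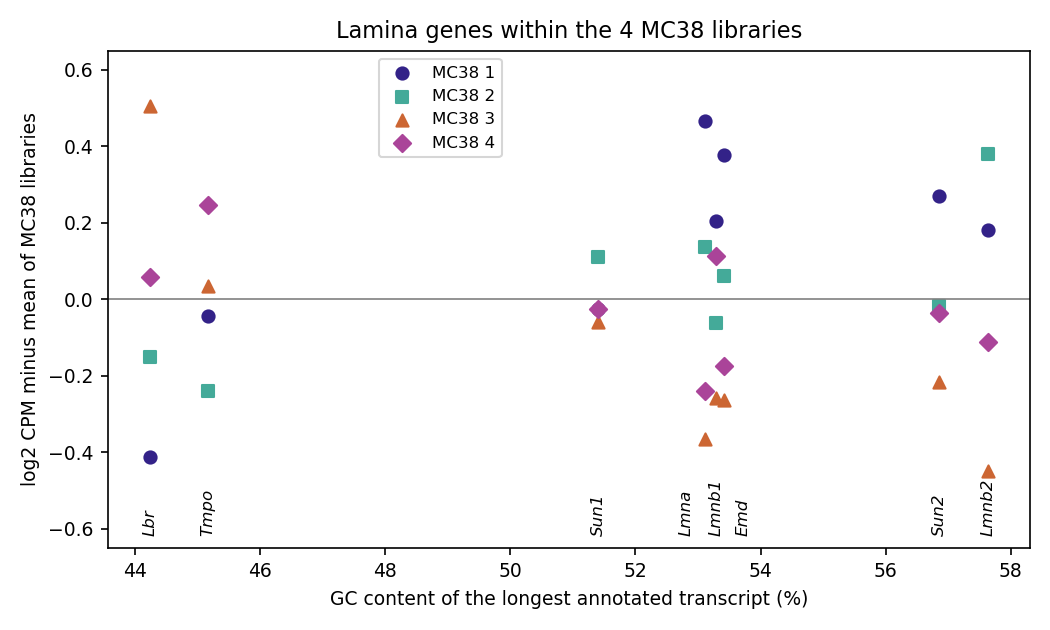
Log2 CPM of each lamina gene in an MC38 library minus its mean over the 4 MC38 libraries (y axis) against the GC content of the gene's longest annotated transcript in percent (x axis); each marker style is a library. MC38 3 is above the mean for Lbr (44.2% GC) and Tmpo (45.2%) and below it for the 6 members of higher GC content, and MC38 1 shows the opposite for all but Sun1.

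Genes that process lamins or share the envelope with them showed no called change. The list held 22 genes and all were tested, with 0 called by edgeR, DESeq2 or limma-voom. Of the 22, 4 were higher and 2 lower at an unadjusted edgeR p under 0.05, against 17.5% of all tested genes in either direction. The median log2 fold change was 0.06. Narf, which was found through its binding to prenylated prelamin A, averaged 13.8 ± 2.12 CPM in control and 26.01 ± 6.46 CPM in MC38 (adjusted p = 0.153 in edgeR), and Nemp1, an inner membrane protein, at 13.9 ± 2.89 and 23.5 ± 4.49 CPM (0.204). Fntb, the beta subunit of the farnesyltransferase that modifies lamins, averaged 14.8 ± 2.42 CPM in control and 8.68 ± 1.25 CPM in MC38 (adjusted p = 0.234 in edgeR). Banf1, which encodes BAF, was at 474.5 ± 64.2 and 376.7 ± 39.6 CPM (0.243; SD, n = 2 and 4 throughout).

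Nuclear pore genes gave no call in edgeR, with a median fold change below that of all genes. Of 30 listed, 29 were tested, with 0 called by edgeR or limma-voom and 2 (Tpr and Nup210) by DESeq2. At an unadjusted edgeR p under 0.05, 2 were higher and 6 lower, against 17.5% of all tested genes in either direction. The median log2 fold change was -0.22. Tpr, of the nuclear basket, averaged 158.6 ± 13.3 CPM in control and 111.9 ± 3.92 CPM in MC38 (adjusted p = 0.0672 in edgeR), and Nup210, a transmembrane nucleoporin, at 111.3 ± 0.69 and 74.5 ± 11.7 CPM (0.113). The scaffold genes Nup107 (35.2 ± 6.98 and 19.3 ± 5.13 CPM, edgeR adjusted p = 0.15) and Nup37 (34.8 ± 1.55 and 17.7 ± 5.95 CPM, 0.155) belong to the Y-shaped subcomplex.

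Among genes of peripheral heterochromatin, 1 rose and 1 fell of 15 tested. Over all tested genes, edgeR called 1.04% higher and 0.569% lower. At an unadjusted edgeR p under 0.05, 2 of the 15 were higher and 4 lower, against 17.5% of all tested genes in either direction. Prr14, which tethers HP1-bound chromatin to the lamina, rose from 60.3 and 64.3 CPM in the controls to 129.1, 111.4, 96.0 and 97.4 CPM in MC38 1 to 4 (log2 fold change 0.80, SE 0.16; adjusted p = 0.0475 in edgeR). Trim28, the KAP1 corepressor, fell from 261.2 and 231.9 CPM to 179.0, 150.8, 161.6 and 166.2 CPM (log2 fold change -0.58, SE 0.12; adjusted p = 0.0451 in edgeR). Neither gene's groups overlapped. Both calls were close to the threshold and were lost without control 1 (edgeR adjusted p = 0.276 for Prr14 and 0.29 for Trim28), control 2 (0.147 and 0.115), MC38 2 (0.139 and 0.151) or MC38 4 (0.0983 and 0.152), and with limma-voom (0.0715 and 0.0554). Cbx5, which encodes HP1 alpha, averaged 88.0 ± 25.2 CPM in control and 61.4 ± 6.52 CPM in MC38 (adjusted p = 0.2 in edgeR). The median log2 fold change of the list was -0.15.

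Actin and SRF-MRTF genes, whose regulation emerin and lamin A can affect, gave no call in edgeR. Of 20 listed, 17 were tested, with 0 called by edgeR or limma-voom and 3 (Actg1, Tagln2 and Tpm4) by DESeq2. In edgeR 2 were higher and 5 lower at an unadjusted p under 0.05, against 17.5% of all tested genes in either direction. The median log2 fold change was 0.08. Tpm4, a tropomyosin, averaged 35.4 ± 5.09 CPM in control and 60.7 ± 9.35 CPM in MC38 (adjusted p = 0.0857 in edgeR), and passed without MC38 1 (0.0478). Mrtfa, the actin-regulated SRF coactivator, was at 21.3 ± 5.21 and 33.4 ± 1.66 CPM (0.168). Tagln2, an actin-binding transgelin, averaged 547.8 ± 5.81 CPM in control and 419.9 ± 20.8 CPM in MC38 (adjusted p = 0.101 in edgeR), and the cytoplasmic actin Actg1 at 1484 ± 21.0 and 1186 ± 40.7 CPM (0.132).

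Genes of G2 and mitosis, the phase in which the lamina is taken apart, gave 3 falls among 20 tested genes and no rise. Over all tested genes, edgeR called 0.569% lower and 1.04% higher. At an unadjusted edgeR p under 0.05, 9 of the 20 were lower and 0 higher, against 17.5% of all tested genes in either direction. For 12 of the 20, every MC38 library was below both controls, against 15.0% of all tested genes. Ccnb2 and Ccnb1, the B-type cyclins that activate the kinase that phosphorylates lamins, fell in MC38. Ccnb2 went from 81.6 ± 3.43 to 39.5 ± 3.55 CPM and Ccnb1 from 40.9 ± 1.98 to 16.5 ± 3.31 CPM (adjusted p = 0.0106 and 0.0269 in edgeR). Top2a, a topoisomerase of dividing cells, fell from 138.9 ± 3.27 to 90.5 ± 3.27 CPM (adjusted p = 0.0347 in edgeR), and Ube2c, a ubiquitin-conjugating enzyme of mitosis, was at 104.2 ± 4.48 and 68.5 ± 6.24 CPM (0.0686). The median log2 fold change of the list was -0.55. The log2 fold changes of Lmnb1 and Tmpo, both known to be higher in cycling cells, were -0.28 and 0.03. The part of cell cycling in the lamina gene values was not tested. All 3 calls were lost without control 1 (edgeR adjusted p = 0.128 for Ccnb2, 0.2 for Ccnb1 and 0.189 for Top2a) or control 2 (0.0745, 0.114 and 0.138). Without MC38 2 Ccnb1 (0.0909) and Top2a (0.125) were lost, and without MC38 4 Top2a (0.12).

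**Figure D4:**
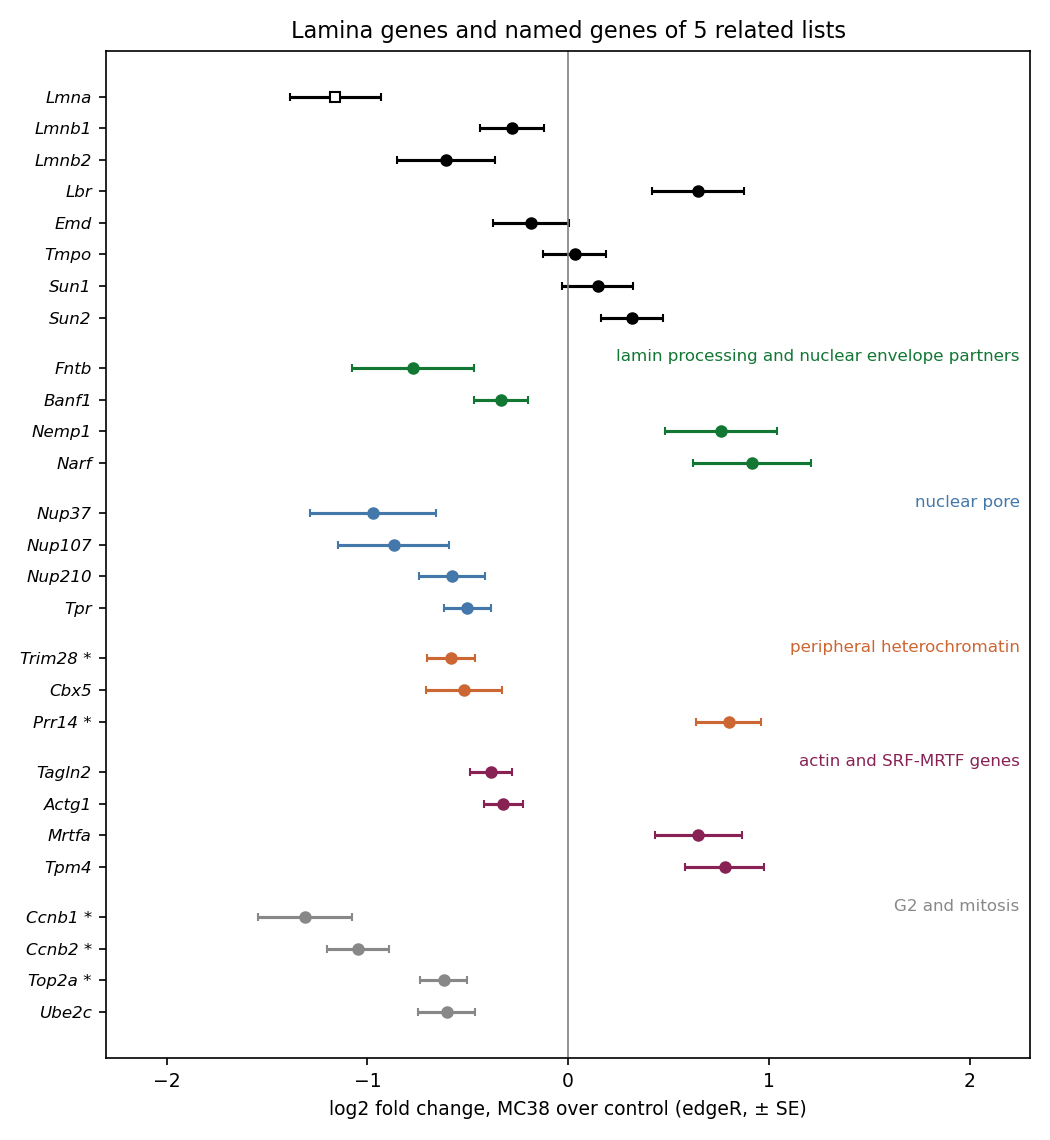
Log2 fold change of MC38 over control from edgeR (x axis; bars are ± SE) for the 8 lamina genes and the genes named in each of 5 related lists; an asterisk marks an adjusted p under 0.05, and the open square marks Lmna, which was picked for its difference and not tested. Among the lamina genes Lmna (-1.16) and Lbr (0.65) lie farthest from 0 on each side, and the 5 asterisks fall on Trim28, Prr14, Ccnb1, Ccnb2 and Top2a.

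The genes whose pattern was most like that of Lmna were taken from 10244 tested genes by the root mean square difference of log2 CPM, centred on each gene's mean, over the 6 libraries. They were Shld2 (0.14), Stam (0.155), Muc3a (0.163), Klf2 (0.163) and Atp7b (0.165). Klf2, a shear- and quiescence-linked transcription factor, was by far the most abundant of them, at 1705 and 1754 CPM in the controls and 843.5, 799.5, 663.8 and 725.6 CPM in MC38 1 to 4. Like Lmna it was highest in MC38 1 and lowest in MC38 3 within its group. The closest to Lmnb1 were Chchd4, Dnajc7, Rtf1, Trp53i11 and Snx14, with differences between 0.037 and 0.047. Both sets were picked for these values, so no test is given.

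The libraries held transcripts that mark HSCs and transcripts that mark other cell types. Bulk counts do not show which cells held them. Over all tested genes, edgeR called 1.04% higher and 0.569% lower, and 17.5% had an unadjusted p under 0.05. All 12 HSC markers were tested, and their sum was between 1762 and 1901 CPM in control and between 1626 and 1880 CPM in MC38, with 0 called by edgeR (1 higher and 1 lower at an unadjusted p under 0.05). The 7 megakaryocyte markers summed to between 379.9 and 401.2 CPM in control and between 289.7 and 361.5 CPM in MC38. EdgeR called 0 of them, and 3 were lower and 1 higher at an unadjusted p under 0.05. The higher one was Ppbp, which averaged 2.04 and 7.65 CPM in control and MC38. The 7 erythroid markers summed to between 392.5 and 450.2 CPM in control and between 273.8 and 364.7 CPM in MC38, with 0 called by edgeR. Of these, 0 were higher and 2 lower (Klf1 and Car1) at an unadjusted p under 0.05, and their median log2 fold change was -0.42. The 14 stromal and endothelial markers, types in which Lmna is known to be abundant, summed to between 108.5 and 125.8 CPM in control and between 141.7 and 156.8 CPM in MC38. Of the 10 that were tested 0 were called by edgeR, and 3 were higher and 0 lower at an unadjusted p under 0.05. These were Cxcl12, a niche chemokine (4.84 and 11.6 CPM in control and MC38), Emcn (10.8 and 21.5 CPM) and Pecam1 (42.7 and 57.4 CPM). The groups overlapped for Cdh5 (1.16 and 1.16 CPM), Kdr (5.50 and 5.17 CPM), Lepr (33.8 and 37.3 CPM) and Pdgfrb (11.2 and 10.7 CPM). Of the matrix genes, Lum was at 0 in all 6 libraries, and Col3a1 had 1 count and Dcn 4 over all of them. Others were present at low levels: Col1a2 averaged 3.67 and 3.15 CPM and Sparc 1.41 and 1.17 CPM in control and MC38. Col1a1 averaged 1.93 and 0.288 CPM, with 3.70 CPM in control 1 and 0.165 CPM in control 2. The 9 macrophage markers summed to between 39.9 and 53.3 CPM in control and between 58.3 and 91.1 CPM in MC38, and Marco was at 0. Of the 7 macrophage markers tested, 1 was called, and 3 were higher and 0 lower at an unadjusted p under 0.05. The called one, the complement gene C1qa, rose from 0.166 to 4.31 CPM (adjusted p = 0.0342 in edgeR). It had only 1 and 3 counts in control 1 and 2. C1qb averaged 1.90 and 11.4 CPM and C1qc 0.784 and 7.49 CPM (edgeR adjusted p = 0.0955 and 0.136). Adgre1 averaged 1.25 and 2.88 CPM in control and MC38, with groups that did not overlap. Csf1r (21.4 and 17.8 CPM), Vcam1 (19.5 and 23.97 CPM) and Mrc1 overlapped between the groups, and Cd5l had 1 count, in MC38 3. The 8 T and NK cell markers summed to between 423.0 and 488.9 CPM in control and between 404.6 and 449.4 CPM in MC38, most of it Nkg7 (420.2 and 364.8 CPM). Their median log2 fold change was 0.91, with 0 called by edgeR and 4 higher and 0 lower at an unadjusted p under 0.05. The higher ones were Klrb1c (6.47 and 20.6 CPM in control and MC38), Cd3g (4.48 and 11.4 CPM), Trbc2 (8.10 and 16.1 CPM) and Cd3d (7.74 and 13.9 CPM). The groups overlapped for Gzma (5.51 and 2.51 CPM), Cd3e (2.50 and 2.86 CPM) and Ncr1 (0.867 and 1.85 CPM), and Nkg7 had a log2 fold change of -0.20. B cell markers summed to between 150.7 and 152.2 CPM in control and between 185.1 and 232.9 CPM in MC38, with 0 called by edgeR. Among them, 1 was higher (Igll1, 8.99 and 23.0 CPM) and 0 lower at an unadjusted p under 0.05. The 4 Y-linked genes summed to between 138.0 and 147.7 CPM in control and between 131.1 and 247.2 CPM in MC38. The part of these cell types in the lamina gene values was not tested. The 6 libraries held between 12131546 and 17657037 counts, and each member had between 328 and 6605 counts in each of them.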

How the data were processed

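Per the labels, polyadenylated RNA of 1500 sorted cells was amplified with 12 PCR cycles by a low-input method. The authors deposited raw read counts per Ensembl gene for 6 of the 7 columns, and column 3 of the controls as whole numbers treated here as a score of unstated origin. The tools named in the submitters' processing notes are STAR 2.6.1, HTSeq 0.10.0 and Trim Galore 0.5.0, with the mm10 build. Annotation release and strand setting: not given in the sources used here. No molecular identifiers are named, so PCR copies count as reads.

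GENCODE M21 named 27728 of 28786 genes. Exons of Emd, Lbr, Sun1, Sun2 and Tmpo overlap other annotated genes. Of these, Gm14686 (11 counts over the 6 libraries) and Dnah14 (0) are in the table. RefSeq held start-site sequences for 7 members.

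Counts were tested with edgeR 4.0.16 (R 4.3.3): TMM, filterByExpr, robust quasi-likelihood test, two-sided, Benjamini-Hochberg over 14226 genes, threshold 0.05, no block. DESeq2 1.42.0, limma 3.58.1, other scalings, filters, blocks and left-out libraries were alternatives. The fit was run on simulated counts with less spread between libraries than these data, whose common biological coefficient of variation was 0.366. That run therefore does not show how the fit performs at the spread seen here. Likeness used log2(CPM + 0.5) and a mean of at least 5 CPM. Named genes were all members, in each list every called gene and those of smallest p up to 4, and the 5 nearest to Lmna and to Lmnb1. Of the genes so named, 1 is not reported here. The members and lists were chosen with earlier results of these data known.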

Additional observations from a re-analysis of the deposited data

Results flagged for a closer look

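Cbx5, which encodes HP1 alpha, was at 71.1 CPM in MC38 4, and the other 3 MC38 libraries lay between 57.1 and 59.5 CPM. It was flagged because the gap from MC38 4 to the nearest of the others took most of the range of the group. This was 1 of 42 groups of 4 examined, and chance flags about 1 in 20.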

How the results depend on the processing

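Each of the 38 named genes was refitted under 18 alternatives, 684 fits in all that gave a value: 617 kept direction and side of the threshold, or, for Lmna, moved by less than 1 SD, 28 lost a call, 31 gained one and 8 changed sign, all of genes without a call. The log2 difference of Lmna ran from -0.87 without MC38 3 and 4 to -1.34 without MC38 1. None of the 7 tested members was called in any alternative. The log2 fold change of Emd turned to 0.012 with the replicate block and 0.033 without MC38 3 and 4. That of Tmpo turned to -0.11 with the block, -0.0078 with the GC offset, -0.071 with that offset and the block, and -0.10 without MC38 3 and 4, and ran from -0.12 to 0.20 when 1 library was left out, below 0 without control 1 or MC38 4. The GC offset and the fits without MC38 3 and 4 were chosen after seeing the data.

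Over all genes, higher and lower calls were 791 and 663 with all 7 columns, 626 and 395 with DESeq2, 302 and 202 without the filter, 95 and 36 without immunoglobulin genes, 286 and 225 with the GC offset, and 90 higher with limma-voom. Leaving out 1 library gave 44 to 259 higher and 16 to 183 lower. Whether control and MC38 libraries that share a number were paired is not known. Deviations of same-numbered libraries correlated at 0.07 and -0.04 over genes. With 2 controls, whose deviations mirror each other, these values cannot exclude pairing. With the replicate block, which left 1 residual degree of freedom, 269 genes were higher and 190 lower, nuclear pore calls were 2 and lamina calls 0, and the log2 fold changes of Lmnb2 and Lbr were -0.36 and 0.33.

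With all 7 columns 2 envelope partner, 5 nuclear pore, 4 heterochromatin, 5 actin and 7 G2 and mitosis genes were called. DESeq2 called 2 nuclear pore, 3 actin and 5 G2 and mitosis genes, and the GC offset 2 nuclear pore, 1 heterochromatin and 1 actin gene. Heterochromatin calls were 0 with limma-voom, upper-quartile scaling and without immunoglobulin genes, and 1 with library totals and without MC38 3 and 4. The unfiltered fit called 1 actin gene. Leaving out 1 library gave 0 to 2 heterochromatin, 0 to 1 actin and 0 to 3 G2 and mitosis calls. The cause of these changes was not tested.

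The log2 difference of the A-type to B-type ratio ran from -0.92 to -0.73 when 1 library was left out. MC38 3 and 4 had the lowest ratios (0.205 and 0.174), so the difference is smaller without both. With the longest transcript as length, mean levels over the 6 libraries moved to 14.2 CPM per kb for Lmna, 66.7 for Lbr, 49.0 for Emd, 37.0 for Tmpo, 8.37 for Sun1 and 27.9 for Sun2, since fewer bases were counted. With 2 control libraries, small differences in single genes could not be resolved.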
